A study of Drosophila melanogaster with 4 samples.

Results

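The vacuolar H+ ATPase genes were described on two-colour arrays that set RNA precipitated with GFP-B52 against RNA precipitated with GFP-NLS. The members were all probes whose single gene symbol, brought up to date through the gene identifier, starts with Vha, which gave 34 probes for 30 genes out of 15744 probes for 12236 named genes. Values were complete over the 4 arrays for 31 of the probes (28 genes), and the other 3 lacked 1 array each. The gene table holds 33 Vha genes, and Vha68-1, Vha68-2 and Vha16-1 had no probe with a single symbol. A further 3 probes listed with Vha16-1 and a second gene were left out by the rule.

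B52 is an SR protein of Drosophila melanogaster, a splicing factor that binds RNA, and the study looked for the messenger RNAs it binds while the eye develops. Larvae of the third instar expressed either GFP-B52 or, as the control, GFP carrying a nuclear localisation signal (GFP-NLS), and both transgenes were under GMR, a driver that is active in the differentiating cells of the eye disc. Each pool was made from the dissected front ends of 600 larvae, so the extracts also held tissue in which GMR is not known to be active, and polyadenylated RNA was recovered with a monoclonal antibody to GFP. There were 2 replicates, each hybridised in both dye orientations, which makes 4 arrays and 1 comparison. The 2 orientations of a replicate were averaged, so n is 2, and as nothing says that the replicates came from separate larvae, p-values measure only the spread between these samples.

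The proton pump has a cytosolic sector, V1, which hydrolyses ATP, and a membrane sector, V0, through which protons cross. Rotation of a central stalk couples the sectors. The pump acidifies endosomes, lysosomes and synaptic vesicles, and in insects it also energises the apical membrane of epithelia such as the Malpighian tubule. Work in Drosophila has tied it to Notch receptor processing in imaginal discs and to transmission by photoreceptors. For most subunits 1 paralog is used in most tissues and others are restricted, several of them to the testis. The split into a broad set and other paralogs used below came from this background, not from the arrays.

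The deposited values are log ratios, and no source used here gives their base or direction. The columns were taken to follow the dye, which no source states, and the sign of the arrays with B52 RNA in Cy5 was reversed. Between the orientations of 1 replicate the deposited columns had a Pearson r across probes of 0.603 in replicate 1 and -0.14 in replicate 2, so the replicates differ on this reading and values without the reversal are given too. On the reversed scale above 0 is the side where 1 of 5 probes for B52 itself was found, at 0.47 ± 0.05 log units (SD, n = 2). The other 4 B52 probes had means between -0.33 and 0.13, with 3 above 0, so the B52 probes do not settle the side among themselves. Which precipitate was higher on that side, called here the B52-probe side, is unknown. Between 14788 and 15394 probes had a value per array, and 13963 had one on all 4. Precision is limited by how few arrays there are, and since only ratios were used, no RNA level and no marker's presence could be read. In a precipitate from pooled tissue, a ratio also does not tell more binding from more RNA in the extract, and fewer cells of a type cannot be told apart from less RNA per cell. Arrays 1 and 2 below are replicate 1 and arrays 3 and 4 replicate 2, with B52 RNA in Cy5 on arrays 1 and 3 and in Cy3 on arrays 2 and 4, and values are listed in that order.

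The V-ATPase probes lay on both sides of 0. Of the 31 probes with all values, 21 (67.7%) had a mean above 0, where 48.7% of all 13963 probes did, and 10 lay below. Their median was 0.03 log units beside -0.0025 over all probes, and their means ran from -0.18 to 0.17. No V-ATPase probe passed an adjusted p of 0.05 in limma, with adjusted p values between 0.3 and 0.995. Of all probes 0% passed, and 12.9% (1808) reached an unadjusted p under 0.05, as did 4 of the 31, Vha13, Vha14-1, VhaM9.7-a and Vha16-4.

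The surplus above 0 was not seen without 1 of the arrays. Without array 1, 13 of the 31 probes lay above 0 and the median was -0.0135, beside 51.2% and 0.004 over all probes. Without array 2, 21 of the 31 lay above 0 and the median was 0.068, beside 49.1% and -0.003 over all probes. Array by array, the median of the 31 probes was 0.085, -0.012, 0.021 and 0.029. The share above 0 on all 4 arrays was 3 of 31 (9.68%), where 5.96% of all probes were, and the share below 0 on all 4 was again 3 of 31 (9.68%), where 8.04% were. The other 25 probes changed sign between arrays.

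**Figure D1:**
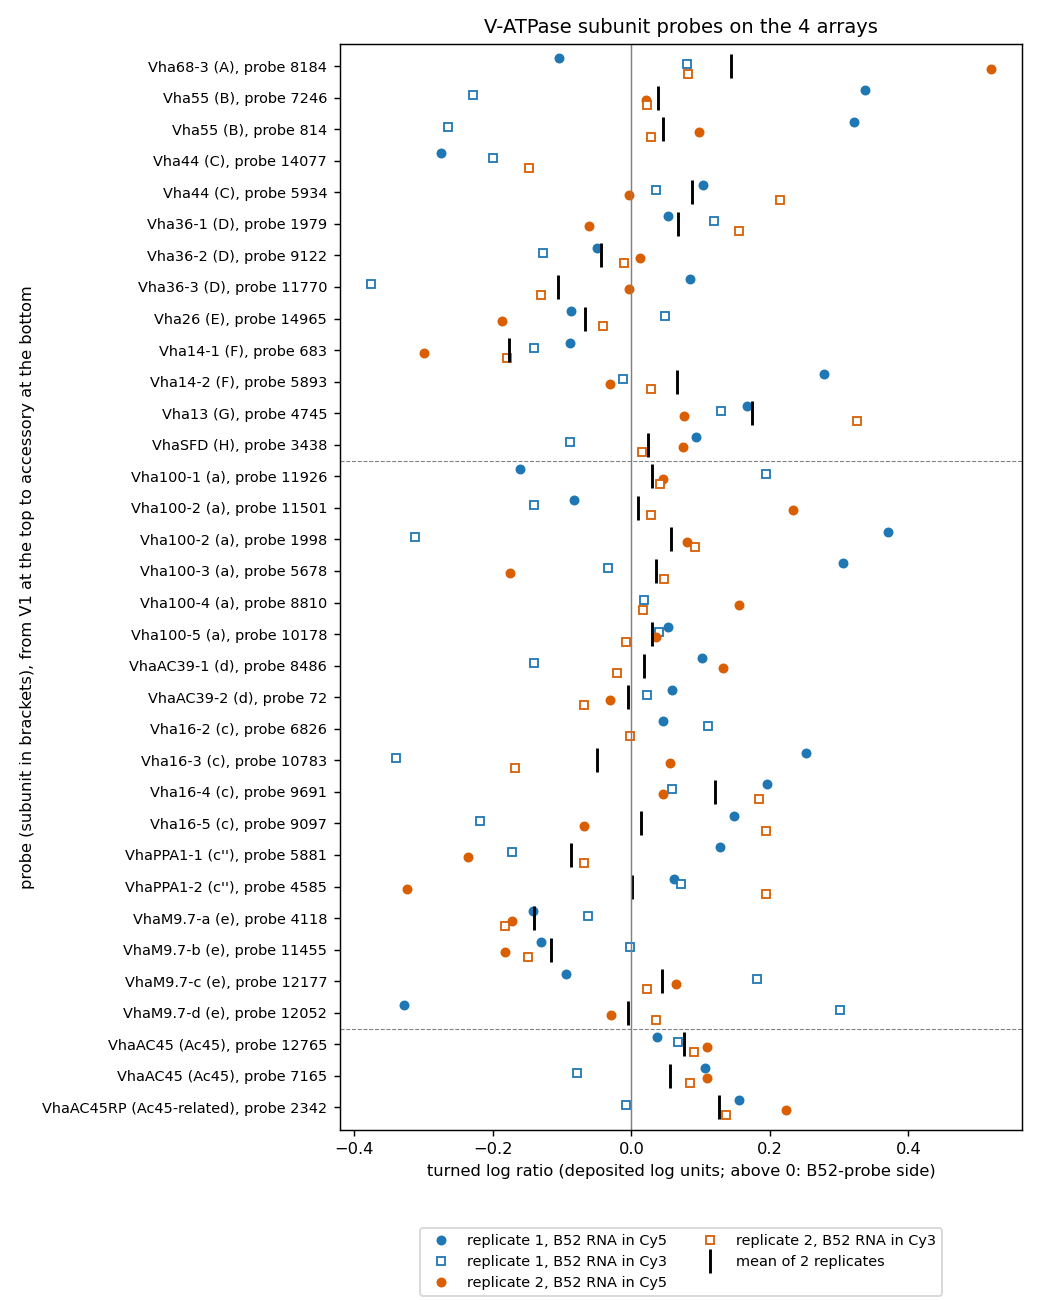
Turned log ratio of each V-ATPase probe (horizontal axis, deposited log units) on each of the 4 arrays, with V1 subunits at the top, then V0 and accessory subunits; the bar is the mean of the 2 replicates, drawn where all arrays had a value. Vha13, Vha16-4 and VhaAC45 probe 12765 lie above 0 on all 4 arrays and Vha14-1, VhaM9.7-a and VhaM9.7-b below 0, while most other probes have points on both sides.

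Among the V1 subunits, stalk proteins had the highest and the lowest mean. Vha13 encodes subunit G of the peripheral stalk, which holds the catalytic head in place, and its probe 4745 lay at 0.17, 0.13, 0.08 and 0.33. All 4 arrays were above 0, and array 4 was the highest. The mean was 0.17 ± 0.04 log units (SD, n = 2), higher than 95.3% of all probes, which is 1.49-fold if the base is 10 and 1.13-fold if it is 2 (adjusted p = 0.3 in limma). Vha14-1 encodes subunit F of the central stalk, and its probe 683 lay at -0.09, -0.14, -0.30 and -0.18. All arrays were below 0, with replicate 2 the lower on both orientations. The mean was -0.18 ± 0.09 (SD, n = 2), lower than all but 5.19% of probes (adjusted p = 0.32 in limma).

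Subunit E, the partner of G in the peripheral stalk, is encoded by Vha26. It lay at -0.09, 0.05, -0.19 and -0.04, with a mean of -0.07 ± 0.07 (SD, n = 2), so it stood on the other side from Vha13 and its spread was as large as its mean. Vha44 encodes subunit C, which joins the stalks to the membrane sector and in yeast and hornworms is released when the pump comes apart. Its probe 5934 lay at 0.10, 0.04, -0.004 and 0.21, with a mean of 0.09 ± 0.02 (SD, n = 2). Its other probe, 14077, had no value on array 3 and lay at -0.28, -0.20 and -0.15 on the others. The probes thus had opposite signs on all 3 shared arrays, 0.24 to 0.38 log units apart, and no direction can be given for Vha44.

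Of the catalytic head, subunit B was measured by 2 probes of Vha55, which were the closest pair in the family. Probe 7246 lay at 0.34, -0.23, 0.02 and 0.02, and probe 814 at 0.32, -0.27, 0.10 and 0.03. They differed by 0.006 to 0.076 log units and shared a sign on every array, yet both went from the highest to the lowest of their values between the orientations of replicate 1. Their means were 0.04 ± 0.02 and 0.05 ± 0.02 (SD, n = 2), both under the distance between single arrays. Subunit A, which holds the catalytic site, was represented only by the paralog Vha68-3, at -0.11, 0.08, 0.52 and 0.08. Array 3 gave the highest value of any member, and the mean of 0.14 ± 0.22 (SD, n = 2) was smaller than its spread.

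The remaining V1 genes lay close to 0 or were split between arrays. VhaSFD, subunit H, which in yeast silences free V1, lay at 0.09, -0.09, 0.08 and 0.02 (mean 0.02 ± 0.03, SD, n = 2). For subunit D of the central stalk, Vha36-1 lay at 0.05, 0.12, -0.06 and 0.16, with a mean of 0.07 ± 0.03 (SD, n = 2). Its paralogs lay below 0, Vha36-2 at -0.05, -0.13, 0.01 and -0.01 (mean -0.04 ± 0.06) and Vha36-3 at 0.09, -0.38, -0.004 and -0.13 (mean -0.11 ± 0.06). The second F gene, Vha14-2, lay at 0.28, -0.01, -0.03 and 0.03, so its mean of 0.07 ± 0.09 (SD, n = 2) came from 1 array. On gene means, 7 of the 11 V1 genes with all values lay above 0, with a median of 0.04, beside 46% of 11173 genes and a median of -0.01. This counts Vha44 by its complete probe alone. Without Vha44, an alternative chosen after seeing the data, 6 of 10 V1 genes lay above 0, with a median of 0.03. Without array 1 the V1 median was -0.02.

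**Figure D2:**
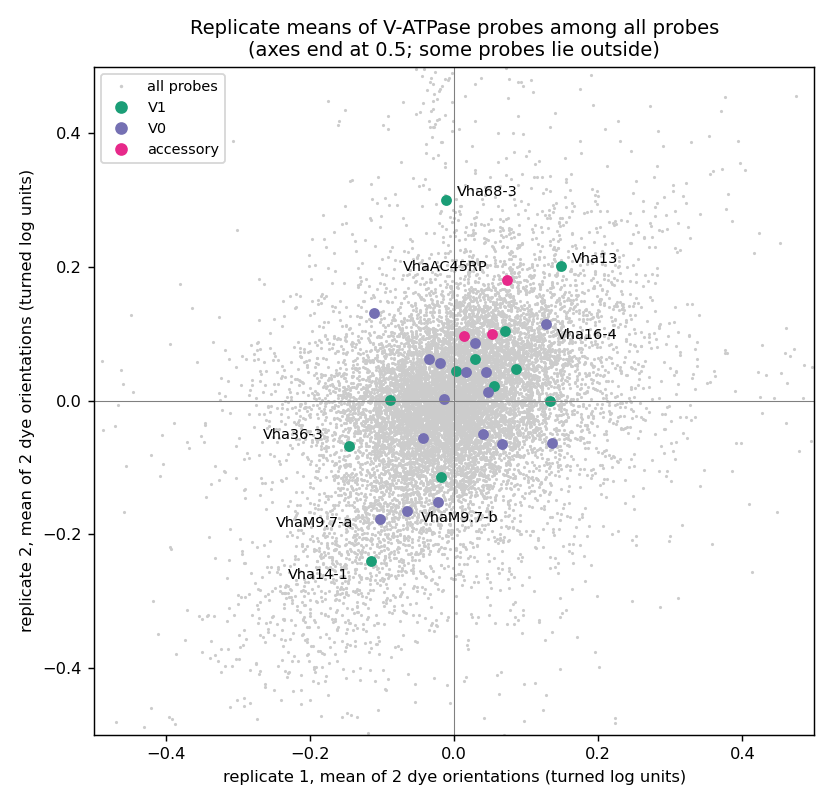
Mean of both dye orientations in replicate 1 (horizontal axis) against replicate 2 (vertical axis), in turned log units, for all 13963 probes in grey and the 31 V-ATPase probes in colour by sector. Of the V-ATPase probes 21 have the same sign in both replicates, with Vha13 and Vha16-4 at the upper right and Vha14-1 and VhaM9.7-a at the lower left.

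Both replicates gave the same sign for 21 of the 31 probes (67.7%), where 60.8% of all probes had it, and the Pearson r between replicates was 0.423 across V-ATPase probes and 0.311 across all. Probes share the arrays and the pools, so r describes these values only. The median SD between replicates was 0.053 log units for V-ATPase probes, the same as over all probes, and the median distance of the mean from 0 was 0.055 for both. For 14 of the 31 probes the SD was at least as large as the distance of the mean from 0. This was not counted over all probes.

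In the membrane sector, the lowest means were those of VhaM9.7-a and VhaM9.7-b, both for the small hydrophobic subunit e. The lowest single arrays belonged to Vha16-3 and VhaM9.7-d. VhaM9.7-a lay at -0.14, -0.06, -0.17 and -0.18, below 0 on every array, with a mean of -0.14 ± 0.05 log units (SD, n = 2; adjusted p = 0.361 in limma). VhaM9.7-b lay at -0.13, -0.002, -0.18 and -0.15, with a mean of -0.12 ± 0.07 (SD, n = 2; adjusted p = 0.435 in limma). These are the e genes of the broad set, and on both array 2 was the closest to 0. The other paralogs did not lie with them, as VhaM9.7-c was at -0.09, 0.18, 0.06 and 0.02 (mean 0.04 ± 0.0004) and VhaM9.7-d at -0.33, 0.30, -0.03 and 0.04 (mean -0.01 ± 0.01). The small SD of VhaM9.7-c is that of replicate means, and the arrays of replicate 1 lay on opposite sides of 0.

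Subunit a carries the proton channels, and in yeast and mammals its paralogs send the pump to different membranes. Vha100-1, the form needed in neurons for synaptic vesicle release, lay at -0.16, 0.20, 0.05 and 0.04 (mean 0.03 ± 0.02, SD, n = 2). Its replicate means were 0.017 and 0.043, while the arrays of replicate 1 lay on opposite sides of 0. Vha100-2 had 2 probes, 1998 at 0.37, -0.31, 0.08 and 0.09 and 11501 at -0.08, -0.14, 0.23 and 0.03. They were up to 0.454 log units apart and had the same sign on 3 of 4 arrays, with means of 0.06 ± 0.04 and 0.01 ± 0.17 (SD, n = 2). Vha100-3 lay at 0.31, -0.03, -0.18 and 0.05 (mean 0.04 ± 0.14) and Vha100-5 at 0.05, 0.04, 0.04 and -0.01 (mean 0.03 ± 0.02). Vha100-4, which lies next to Vha100-2 on chromosome arm 3R, lacked array 1 and was at 0.02, 0.16 and 0.02 on the others.

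The c subunits form the ring that carries protons through the membrane. Of these, Vha16-4 lay at 0.20, 0.06, 0.05 and 0.18, above 0 on all arrays, with a mean of 0.12 ± 0.01 log units (SD, n = 2; adjusted p = 0.382 in limma). Its replicate means were 0.128 and 0.115, the closest of the members with a mean beyond 0.1. Vha16-3 lay at 0.25, -0.34, 0.06 and -0.17 (mean -0.05 ± 0.01), and its neighbour on 3L, Vha16-2, at 0.05, 0.11 and -0.002 with array 3 missing. Vha16-5 lay at 0.15, -0.22, -0.07 and 0.19 (mean 0.01 ± 0.07), with both signs in each replicate. The ring subunit c'' is encoded by VhaPPA1-1, at 0.13, -0.17, -0.24 and -0.07 (mean -0.09 ± 0.09), and by VhaPPA1-2, at 0.06, 0.07, -0.32 and 0.19 (mean 0.001 ± 0.09).

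Subunit d links the ring to the central stalk, and neither of its genes stood away from 0. VhaAC39-1, which has been tied to Notch activation in flies, lay at 0.10, -0.14, 0.13 and -0.02 (mean 0.02 ± 0.05, SD, n = 2), and VhaAC39-2 at 0.06, 0.02, -0.03 and -0.07 (mean -0.005 ± 0.06). Of the 15 V0 genes with all values 9 lay above 0, with a median of 0.01, and without array 1 the median was -0.04. On gene means 1 of the 15 was above 0 on all 4 arrays and 2 were below, beside 5.93% and 8.37% of all genes.

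Both accessory genes had a mean above 0. VhaAC45, a membrane protein that assists assembly and sorting of the pump, had probe 12765 at 0.04, 0.07, 0.11 and 0.09, above 0 on every array, with a mean of 0.08 ± 0.03 log units (SD, n = 2; adjusted p = 0.523 in limma). Its probe 7165 lay at 0.11, -0.08, 0.11 and 0.08 (mean 0.06 ± 0.06, SD, n = 2), and the probes differed by at most 0.146, on array 2. VhaAC45RP, named as related to it, lay at 0.16, -0.01, 0.22 and 0.14, with a mean of 0.13 ± 0.08 (SD, n = 2; adjusted p = 0.412 in limma). Without any 1 array the median of both genes was between 0.066 and 0.126. Without turning that median was -0.043, with 0 genes above 0. ATP6AP2, the other accessory protein and no member by its name, lay at 0.03, 0.04, -0.11 and -0.04 (mean -0.02 ± 0.08).

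Within subunits that have several paralogs, the broad gene was compared with the others on the same arrays. For F, Vha14-1 was lower than Vha14-2 on all 4 arrays, by -0.37, -0.13, -0.27 and -0.21, with a mean difference of -0.24 ± 0.01 log units (SD, n = 2). For e, VhaM9.7-a and VhaM9.7-b were on average lower than VhaM9.7-c and VhaM9.7-d on 3 of 4 arrays, with a mean difference of -0.15 ± 0.07. For D, Vha36-1 was higher than Vha36-2 and Vha36-3 on 3 of 4 arrays, by 0.14 ± 0.09. The differences for c'', d and a were -0.09 ± 0.001, 0.02 ± 0.12 and 0.002 ± 0.15, and in each of these the arrays lay on both sides of 0. These differences were not tested, and neither was signal shared between paralogs of similar sequence.

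**Figure D3:**
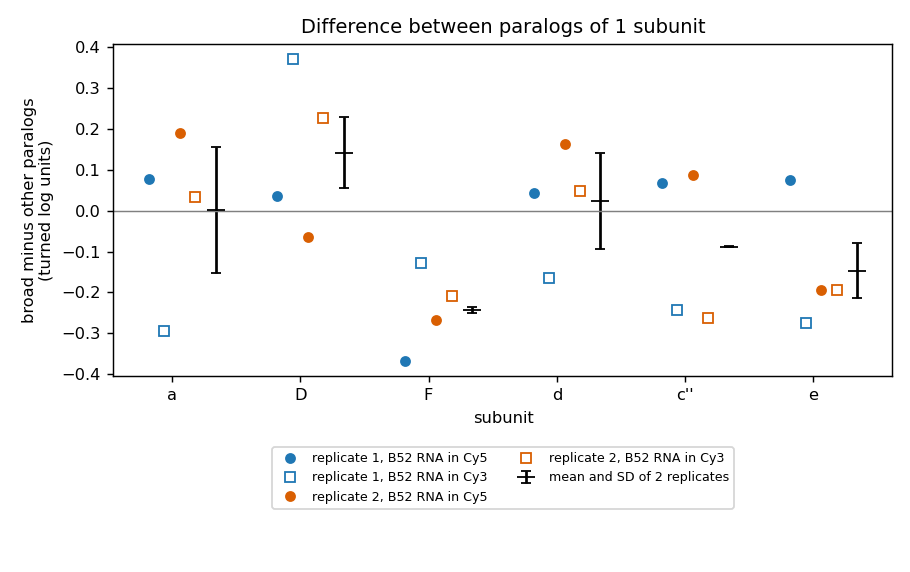
Difference between the broad paralog and the mean of the other paralogs of 1 subunit (vertical axis, turned log units) on each array, with the mean and SD of the 2 replicates at the right of each subunit. Subunit F lies below 0 on all 4 arrays and subunit e on 3, while a, d and c'' scatter across 0.

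The 13 broad genes with all values had a median of 0.02 and the 15 others one of 0.03. Among the broad genes 1 lay above 0 on all 4 arrays and 3 below, and among the others 1 and 0, where 5.93% and 8.37% of all genes were. The broad set includes Vha44, and without it 7 of 12 lay above 0, with a median of 0.02. The median of the broad genes was -0.04 without array 1 and 0.069 without array 2. That of the others stayed between 0.0035 and 0.034 without any 1 array. Without turning it was the median of the others that changed sign, to -0.025, while that of the broad genes was 0.017.

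How the columns are read changes most of these values. Without turning, 18 of the 31 V-ATPase probes changed the sign of their mean, a count not made over all probes. The median was then -0.03, with 13 of the 31 above 0, beside 50.1% of all probes. In that reading VhaM9.7-d lay above 0 on all 4 arrays, at 0.33, 0.30, 0.03 and 0.04, where 11.4% of all probes were. Below 0 on all 4 lay Vha16-3, at -0.25, -0.34, -0.06 and -0.17, and VhaAC39-1, at -0.10, -0.14, -0.13 and -0.02, where 10.6% of all probes were. None of the 6 probes with 1 sign on the turned arrays was among these 3, as a probe can have 1 sign on all arrays in only 1 reading. No V-ATPase probe passed without turning either, where 0.659% of all probes did, nor with the replicate as a random block, where 3.2% did. The block fit had a negative correlation (-0.664) between arrays of a replicate. This narrows its error of the mean, so its share is not comparable with that of the main fit.

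**Figure D4:**
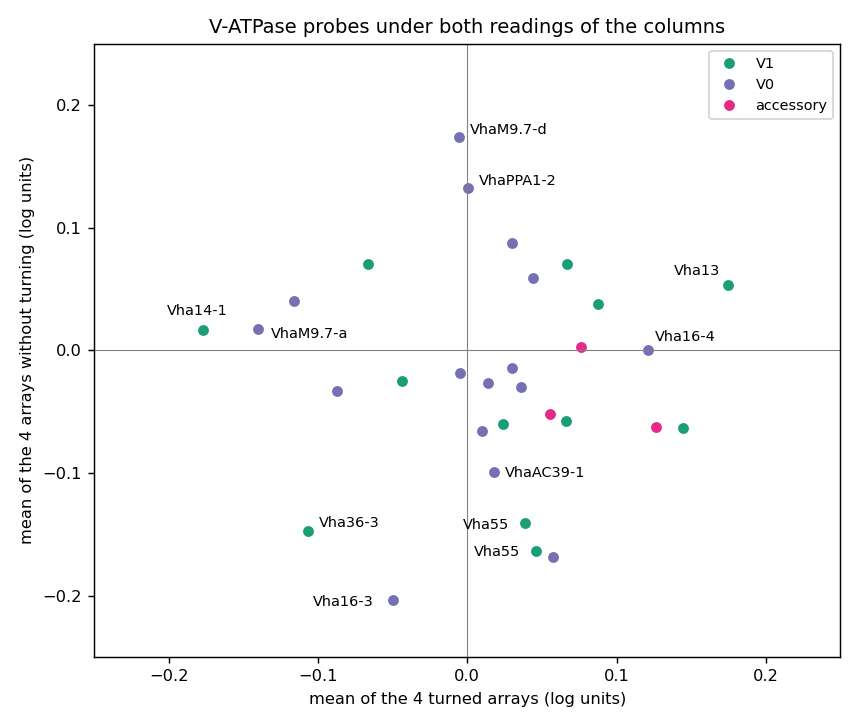
Mean of the 4 turned arrays (horizontal axis) against the mean of the same arrays without turning (vertical axis) for the 31 V-ATPase probes, in log units, coloured by sector. Vha13, Vha16-4, Vha14-1 and VhaM9.7-a lie far out horizontally and near 0 vertically, whereas VhaM9.7-d, VhaPPA1-2, Vha16-3 and both Vha55 probes lie far out vertically.

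The mean square was split by sign patterns over the arrays, which are named here for the turned reading. Without turning, the names comparison and dye pattern change places. The comparison took 26.6% of the mean square of the V-ATPase probes and the dye pattern 31.1%, beside 22.6% and 40.2% for all probes. The difference of the comparison between replicates took 11.3% and that of the dye pattern 31%, beside 12.3% and 24.9%. As deposited, the orientations of replicate 1 had the same sign for 18 of the 31 probes (58.1%), beside 72% of all probes, and those of replicate 2 for 11 (35.5%), beside 41.7%.

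Genes that work with the pump were read from lists, on gene means. In the list of regulators and assembly factors, 4 of 10 measured genes lay above 0, with a median of -0.02, and none passed; 0.00895% of all genes (1 gene) did. Lamtor2, of the Ragulator complex that binds the pump at the lysosome in mammals, lay at 0.17, 0.13, 0.04 and 0.16 (mean 0.12 ± 0.04, SD, n = 2). Rbcn-3B, of the rabconnectin complex, whose yeast counterpart joins V1 to V0, lay at -0.02, -0.06, -0.07 and -0.09 (mean -0.06 ± 0.03), and CG5969 at -0.02, -0.11, -0.17 and -0.15 (mean -0.11 ± 0.07). These 3 were the genes of the list with 1 sign on all arrays. Of all genes 46% had a mean above 0, 5.93% lay above 0 on all arrays and 8.37% below.

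Of 17 lysosomal genes 10 lay above 0, with a median of 0.002, 1 was above 0 on all arrays and 3 were below, beside 46%, 5.93% and 8.37% of all genes. This median ran from -0.084 to 0.067 without any 1 array. Among the genes with 1 sign on all arrays, CtsB, a cathepsin B, lay at 0.11 ± 0.02 and cathD, a cathepsin D, at -0.13 ± 0.04 (SD, n = 2). The sterol transporter gene Npc1a lay at -0.12 ± 0.01 and the lipase gene Lip4 at -0.14 ± 0.06. Of 17 genes of endosome and lysosome traffic 9 lay above 0, with a median of 0.02 that was -0.044 without array 1, 0.084 without array 2 and -0.053 without turning. Those below 0 on all arrays were lqf, an epsin of endocytosis, at -0.20 ± 0.03, and the AP-3 adaptor gene cm at -0.13 ± 0.05. All 4 proton exchanger genes had a mean below 0, with a median of -0.04, which was 0.018 without array 2.

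The F-type ATP synthase, the mitochondrial relative of the pump, had 12 of 14 genes above 0 and a median of 0.06, where 46% of all genes lay above 0. The median lay between 0.028 and 0.113 without any 1 array, but without turning it was -0.005 with 7 of 14 above 0, and none of its genes was on 1 side on all 4 turned arrays. The V-ATPase genes had 18 of 28 above 0 and a median of 0.03, between -0.0175 and 0.06 without any 1 array and -0.02 without turning, and 17 of 27 lay above 0 without Vha44. No gene of these 5 lists passed in limma, and the smallest adjusted p, 0.145, was that of lqf.

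**Figure D5:**
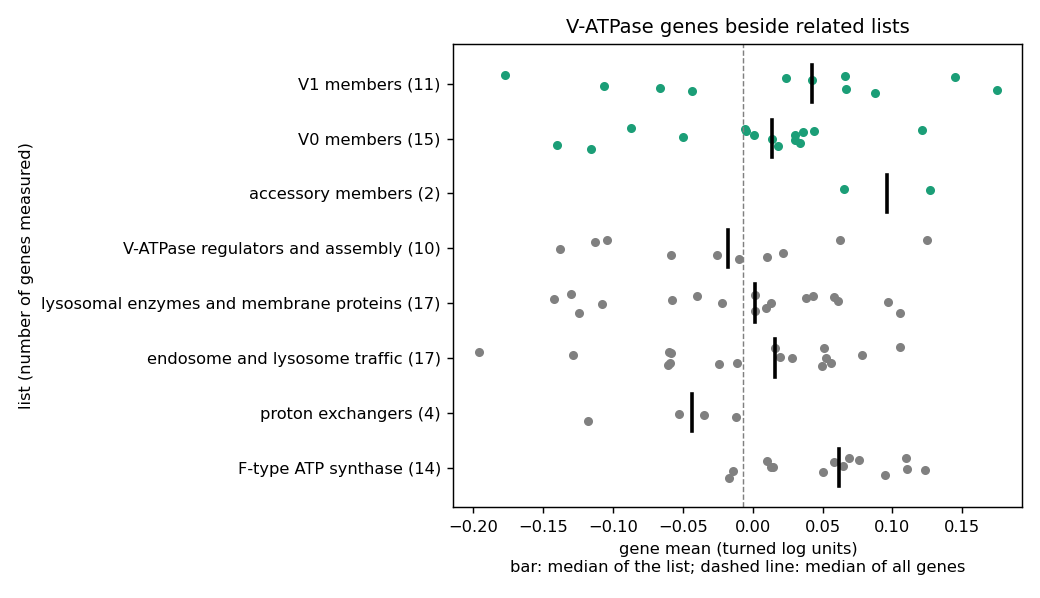
Mean of each gene (horizontal axis, turned log units) for V-ATPase genes by sector in green and for the related lists in grey, with the number of genes measured in brackets, the median of each list as a bar and the median of all genes as a dashed line. V1 and V0 genes spread over both sides of 0, while 12 of 14 ATP synthase genes lie above it; without turning 7 of 14 do.

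Medians on gene means were taken for markers of several tissues and cell types, not all of which the dissected front ends need hold. They were -0.01 for the Malpighian tubule (6 of 12 above 0) and 0.04 for the midgut (8 of 10). Salivary gland and hemocyte medians were -0.02 (5 of 12) and 0.11 (7 of 10). Fat body, glia and neuron medians were -0.02 (2 of 4), -0.09 (0 of 7) and -0.02 (1 of 6). Eye disc and testis medians were -0.07 (4 of 11) and -0.03 (3 of 10). Of all genes 46% lay above 0. That of hemocytes was 0.004 without array 2, that of the midgut ran from -0.021 to 0.118 without any 1 array and that of the salivary gland from -0.085 to 0.085. Malpighian tubule, neuron and testis medians also took both signs. The glial, eye disc and fat body medians kept their signs without any 1 array but changed them without turning. They were then 0.02 for glia, with 4 of 7 above 0, 0.028 for the eye disc and 0.026 for the fat body. Midgut, Malpighian tubule, neuron and testis medians also changed sign without turning, that of the midgut to -0.098. Among the midgut genes above 0 was Vm26Aa, a vitelline membrane gene and not a midgut marker. The gene lz was counted in both the hemocyte and the eye disc list. The part of the tissue markers in the V-ATPase values was not tested.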

How the data were processed

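Two-colour array data were read as 1 deposited table of log ratios by the authors, with the base, direction, background correction and normalization not given in the sources used here. Column medians between 0.002 and 0.006 show centring. The 16 cells at a placeholder were set to missing. Of all probes 13147 had a single gene symbol in the platform annotation, and 12519 of these were matched by gene identifier to a Release 6 gene table.

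Array medians were subtracted, the sign was reversed where B52 RNA carried Cy5, and the orientations of each replicate were averaged. The 13963 complete probes were fitted in limma 3.58.1 (R 4.3.3) with lmFit and eBayes, as the mean of 2 replicates against 0. Benjamini-Hochberg adjustment was over all probes, and the prior degrees of freedom were 3.47. The fit was also run on simulated data, with added changes larger than any V-ATPase mean. That run does not show whether changes of the V-ATPase size would be found. Gene values average probes with values on all arrays, which for Vha44 is 1 of 2 probes.

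The sign and the turning followed an earlier analysis in which the values of that B52 probe were known, and members and lists were chosen with earlier results of these data known. Every member was named. Of each other functional list up to 4 genes with 1 sign on all arrays and the largest mean were named, and of the marker lists only medians and counts are given. Alternatives are in the closing section.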

Additional observations from a re-analysis of the deposited data

Results flagged for a closer look

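VhaAC45 probe 7165 lay at -0.078 log units on array 2 (replicate 1, B52 RNA in Cy3), while the other 3 arrays lay between 0.084 and 0.109, so that 1 array stood apart from the others. It was the only one of 31 V-ATPase probes to do so, and chance flags about 1 in 20 groups.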

How the results depend on the processing

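No V-ATPase probe passed in limma under any setting that gave a test. Over all probes 92 passed without turning, 447 with the replicate number as a random replicate block over the 4 arrays (3.2% of probes; fitted correlation -0.664), 1 with robust moderation and 1 with genes in place of probes. Without turning, the median over V-ATPase probes was -0.02525, with 13 above 0 and 1 above 0 on all 4 arrays. Of all probes 50.1% and 11.4% were. When 1 replicate or 1 array was left out, the median lay between -0.0135 and 0.06825 and the number above 0 between 13 and 21. Of all probes between 47.5% and 51.2% lay above 0 in these settings. The number above 0 on all arrays that were left lay between 4 and 13 and the number below 0 between 3 and 7, which fewer arrays raise by construction. The negative correlation of the block fit narrows its error of the mean, so its 447 probes are not comparable with the main fit. The replicate block, robust moderation and both fits of 4 arrays as separate samples left every mean as it was. Asking for at least 1 array per replicate also left the means of the 31 complete probes unchanged. None of these settings could thus change a sign. Of 31 probes, 13 kept the sign of their mean under every alternative other than no turning, a count not made over all probes. Among them were Vha13, Vha14-1, Vha16-4, VhaM9.7-a, VhaM9.7-b, VhaAC45 and VhaAC45RP. For a probe with 1 sign on all 4 turned arrays, this is fixed by construction when arrays are left out or scaled. That holds for Vha13, Vha14-1, Vha16-4, VhaM9.7-a, VhaM9.7-b and VhaAC45 probe 12765, so their kept signs add no separate support. Of 20 medians of lists and groups, 8 kept their sign without any 1 array. Signal over background is unknown, so what dim probes limit could not be read.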
